A study of Rattus norvegicus with 4 samples.

Results

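Scd, Fads2, Fasn, Me1, Acsl1 and Dgat1 encode enzymes that make fatty acids, put double bonds into them, activate them and join them to glycerol. Each gene was represented by every probe whose platform annotation gave its symbol alone, which yielded 9 of the 1936 probes and 6 of the 958 named genes. Fads2, Acsl1 and Dgat1 had 2 probes each, and Scd, Fasn and Me1 had 1. The genes were chosen with their ratios in these same arrays known, so their ratios are described here and not tested.

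The arrays compared liver RNA of male Sprague-Dawley rats weighing 250 to 300 g, with no age given, at 18 h after alpha-naphthylisothiocyanate (ANIT), injected into the peritoneum at 75 mg/kg as a 7.5 mg/mL solution in olive oil, with that of rats given the same volume of olive oil. ANIT is known to injure bile duct cells and impair bile flow, and the olive oil given to both groups is itself a lipid. All rats had free access to chow before the experiment, and the right lateral lobe was sampled. RNA of 3 rats per treatment was pooled, and the 2 pools were hybridised together to 4 glass cDNA arrays, with ANIT labelled with Cy5 on arrays 1 and 3 and with Cy3 on arrays 2 and 4. The treatment therefore had 1 replicate, and the error given below describes hybridisation and not rats. It is the SD of arrays within an orientation, pooled over Cy5 and Cy3 (n = 4 arrays), and the small number of arrays limits how precise it is. In whole liver RNA fewer cells of a type and less RNA per cell cannot be told apart.

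In liver, excess carbohydrate is broken down to acetyl-CoA, from which fatty acid synthase builds saturated fatty acids with NADPH supplied partly by malic enzyme. Desaturases then introduce double bonds with electrons passed from cytochrome b5 reductase through cytochrome b5, and acyl-CoA synthetases activate fatty acids so that they can be esterified or oxidised. Insulin, through SREBP-1c, and glucose, through ChREBP, are known to raise many of these genes, and dietary polyunsaturated fat is known to lower them.

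The upstream sequences of Scd, Fads2 and Acsl1 are shown because these members stood lowest. A RefSeq table of the rat assembly GRCr8 matched Scd, Fads2, Me1 and Acsl1, 4 of the 6 genes. Each window covers the 250 bases before 1 annotated start, 5′ to 3′ on the gene's strand, which is the minus strand in each case. The windows lie at chr1:253231732-253231981 (Scd), chr1:216172034-216172283 (Fads2) and chr16:52532393-52532642 (Acsl1). Capitals mark matches to the motifs named below.

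Scd: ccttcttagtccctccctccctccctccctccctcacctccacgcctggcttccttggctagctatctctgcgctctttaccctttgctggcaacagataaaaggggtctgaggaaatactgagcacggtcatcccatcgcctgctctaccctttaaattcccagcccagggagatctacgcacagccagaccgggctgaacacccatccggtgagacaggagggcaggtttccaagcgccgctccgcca

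Fads2: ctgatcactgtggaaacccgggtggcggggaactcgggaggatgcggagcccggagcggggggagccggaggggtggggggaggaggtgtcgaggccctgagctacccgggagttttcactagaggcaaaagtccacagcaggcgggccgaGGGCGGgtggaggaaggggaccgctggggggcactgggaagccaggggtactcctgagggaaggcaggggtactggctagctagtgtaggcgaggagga

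Acsl1: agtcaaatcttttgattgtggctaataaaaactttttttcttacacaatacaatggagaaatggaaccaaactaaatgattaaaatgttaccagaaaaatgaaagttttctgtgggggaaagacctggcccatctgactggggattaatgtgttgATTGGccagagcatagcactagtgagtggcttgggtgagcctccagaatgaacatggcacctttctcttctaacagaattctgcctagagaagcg

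All starts shown lay inside the gene's longest annotated span, by 21718 bases for Acsl1, 370 for Scd and 157 for Fads2. Other starts therefore exist for each of these genes. The GC content was 58.8% for Scd, 68% for Fads2 and 40% for Acsl1, against a median of 51.2% over 33469 windows of the same length. Motifs were searched on both strands. The GC box of Sp1 (GGGCGG) occurred once in Fads2, 99 bases before the start, and 5 times in the Me1 window (83.2% GC). It was present in 30.5% of all windows. The CCAAT box bound by NF-Y occurred once, on the opposite strand of the Acsl1 window 95 bases before the start, against 34.0% of all windows. No member window held the letters of the sterol regulatory element (TCACNCCAC, 0.974% of all windows), the E-box CACGTG (5.59%) or the TATA box TATAAA (12.9%). Nor did any hold the direct repeats bound by PPAR (0.0508%) or LXR (0.00299%). These are letter matches in short windows, and the arrays do not measure binding.

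The deposited values are log ratios taken here as log2 and read as ANIT over olive oil. This direction is the likely one, because ANIT is the channel listed second and the titles name it, but neither the direction nor the log base is given in the sources used here. Arrays of the same dye orientation correlated across probes at Pearson's r of 0.958 to 0.979, and arrays of opposite orientation at -0.383 to -0.370. Spearman's rho was 0.953 to 0.977 and -0.609 to -0.600, respectively, so the inverse relation between opposite orientations was stronger by rank. The values were read as already turned to 1 direction on all arrays, because the largest ratios, Scd included, kept their sign in both orientations. The inverse relation over all probes does not by itself decide whether the values were turned. In turned values a probe's dye effect changes sign between orientations, and in unturned values its treatment ratio does. The choice of reading was made with the data known, and the other reading is given at the end. The array medians were -0.53, 0.85, -0.53 and 0.83, so each array was also centred on its median. The values as deposited are given first for every member, because centring moved both dye orientations apart for some members and together for others.

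Scd, the stearoyl-CoA desaturase that makes monounsaturated fatty acids from saturated ones, was the lowest of all 1936 probes. Its single probe had deposited log2 ratios of -3.19 and -3.42 on arrays 1 and 3, and of -2.54 and -3.00 on arrays 2 and 4. All arrays were far below 0, and the dye orientations did not overlap, with the Cy5 arrays lower. The mean was -3.04 as deposited (8.21-fold lower) and -3.19 ± 0.25 after centring (9.13-fold lower). Centring gave -2.66 and -2.89 on the Cy5 arrays and -3.38 and -3.83 on the Cy3 arrays, so the Cy3 arrays were then lower. The error leaves out this gap of 0.83 between orientations.

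Fads2, the desaturase that starts the conversion of linoleic acid to arachidonic acid, was the next lowest member. Probe 1060 had deposited log2 ratios of -1.55, -1.68, -1.48 and -1.74 on arrays 1 to 4. These values lay close together in both orientations, with an SD over all 4 arrays of 0.12. Probe 288 had -1.17, -1.64, -0.94 and -0.46, so that arrays 2 and 4, which share an orientation, stood at opposite ends of its range. Its centred mean was -1.20 ± 0.61, against -1.76 ± 0.038 for probe 1060. Probe 288 lay above probe 1060 on all 4 arrays, by 0.56 ± 0.62 on average. The gene mean over both probes was -1.33 as deposited (2.52-fold lower) and -1.48 ± 0.30 after centring (2.80-fold lower). The centred gene values were -0.83 and -0.68 on the Cy5 arrays and -2.51 and -1.93 on the Cy3 arrays, a gap of 1.46 between orientations, and the Cy5 arrays alone gave -0.75, under 2-fold.

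Acsl1, a long-chain acyl-CoA synthetase abundant in liver, had nearly equal ratios on every array as deposited. Probe 1177 had deposited log2 ratios of -1.04, -1.01, -0.87 and -1.05 on arrays 1 to 4, and probe 433 had -0.91, -0.75, -0.88 and -0.72. All 8 values were below 0, and those of the 2 orientations overlapped for probe 1177 but not for probe 433. The probes differed by 0.18 ± 0.079, with probe 433 higher on 3 of 4 arrays. The gene mean was -0.91 as deposited (1.87-fold lower). Centring parted the dyes, with gene values of -0.44 and -0.35 on the Cy5 arrays and -1.72 on both Cy3 arrays. The centred mean of -1.06 ± 0.049 (2.08-fold lower) thus lies between orientations that differ by 1.32, a gap its error leaves out, and the Cy5 arrays alone gave -0.40, under 2-fold.

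Fasn, the fatty acid synthase, had a small ratio. Its deposited log2 ratios were -0.45 and -0.26 on arrays 1 and 3, and -0.21 and -0.07 on arrays 2 and 4. All lay below 0 and the orientations did not overlap. Centring gave 0.08 and 0.28 on the Cy5 arrays and -1.05 and -0.90 on the Cy3 arrays, so that the sign then depended on the dye. The mean was -0.40 ± 0.12 after centring (1.32-fold lower) and -0.25 as deposited (1.19-fold lower).

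Me1, the cytosolic malic enzyme that supplies NADPH, showed the opposite pattern. Its deposited log2 ratios were -0.68 and -0.62 on the Cy5 arrays and 0.50 and 0.43 on the Cy3 arrays, a change of sign with the dye. After centring it lay below 0 on all arrays, at -0.15, -0.35, -0.09 and -0.39 on arrays 1 to 4. The mean was -0.25 ± 0.036 after centring and -0.09 as deposited, and neither the size nor the sign on single arrays held in both forms.

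Dgat1, which joins the last fatty acid to diacylglycerol to make triglyceride, had a mean near 0 from probes that disagreed by dye. Probe 924 had deposited log2 ratios of -0.96 on both Cy5 arrays, and of 1.01 and 1.07 on the Cy3 arrays. Probe 242 had -0.03 and -0.14 on the Cy5 arrays, and 0.65 and 0.68 on the Cy3 arrays. On the Cy5 arrays probe 242 was the higher by 0.93 and 0.82, and on the Cy3 arrays it was the lower, with differences of -0.36 and -0.38. The centred gene mean was 0.01 ± 0.044, from -0.11 for probe 924 and 0.14 for probe 242, and the deposited mean was 0.17.

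**Figure D1:**
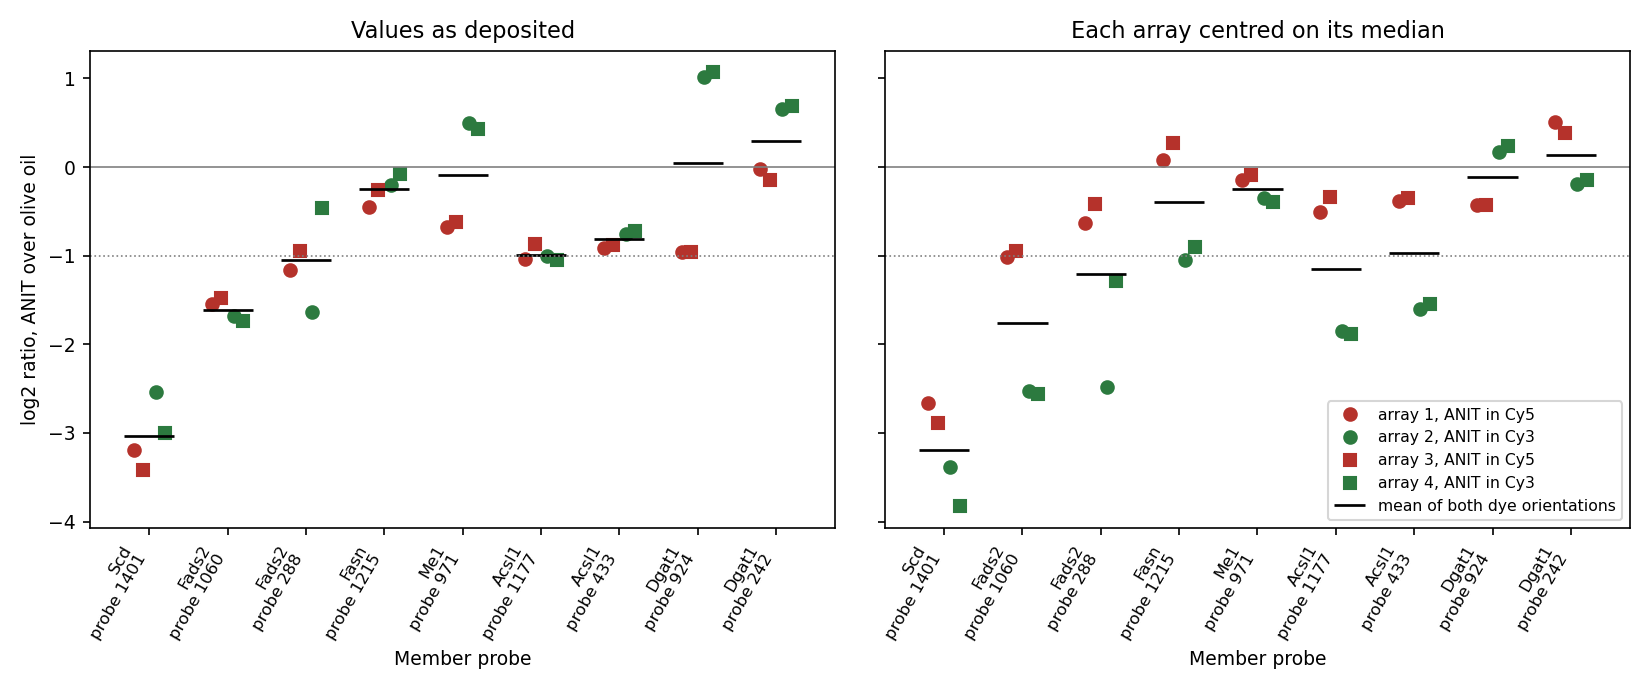
Log2 ratio (ANIT over olive oil, vertical axis) of the 9 member probes on each of the 4 arrays, as deposited (left) and after each array was centred on its median (right). Red points have ANIT in Cy5 and green points in Cy3, black bars are the mean of both orientations, and the dotted line marks a 2-fold lower ratio. As deposited, the points of Acsl1 probe 1177 and Fads2 probe 1060 sit close together and those of Dgat1 probe 924 lie at -0.96 and above 1.01, whereas centring parts the dyes for Acsl1, Fads2 and Fasn.

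A gene was counted as lower where the centred mean was at least 2-fold below 0 and every centred array was below 0. By this rule 3 of the 6 genes were counted as lower (Scd, Fads2 and Acsl1) and 0 as higher, against a background of 1.15% lower and 1.25% higher among all 958 genes. Of the 9 probes, 4 were counted as lower, against 0.93% of all probes. Probe 433 of Acsl1 fell just short at -0.97. With the values as deposited, 2 genes remained counted, Scd and Fads2, against 0.731% of all genes, and 3 probes, against 0.568% of all probes. Acsl1 thus crossed the 2-fold line with the choice of the zero point. Irrespective of size, 4 members (Scd, Fads2, Acsl1 and Fasn) lay below 0 on all 4 deposited arrays, against 4.80% of all genes. Since the genes were chosen on these ratios, nothing further is read from these shares.

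The difference between dye orientations comes from the same arrays as the ratios and is likewise a description. As deposited, the mean of the Cy5 arrays less that of the Cy3 arrays ran over all 1936 probes from -3.30 to 0.36, with a median of -1.25. Of the 9 member probes, 5 belonged to the 484 probes with the highest differences, namely both of Fads2, both of Acsl1 and the Fasn probe. Their differences were 0.20 (Fads2 probe 1060), -0.0053 (Fads2 probe 288), 0.074 (Acsl1 probe 1177), -0.16 (Acsl1 probe 433) and -0.21 (Fasn). The probes of Scd (-0.54), Me1 (-1.11) and Dgat1 probe 242 (-0.75) were among the next 484, and Dgat1 probe 924 (-2.0) was in the third such set. The SD of the deposited mean ratio over probes was 0.46, 0.45, 0.21 and 0.061 in the 4 sets, from the highest to the lowest differences. Ratios near 0 were thus the rule among probes with a dye difference like that of Dgat1 probe 924, and the part of this dye difference in the small ratio of Dgat1 was not tested. Spot brightness was not analysed here.

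**Figure D2:**
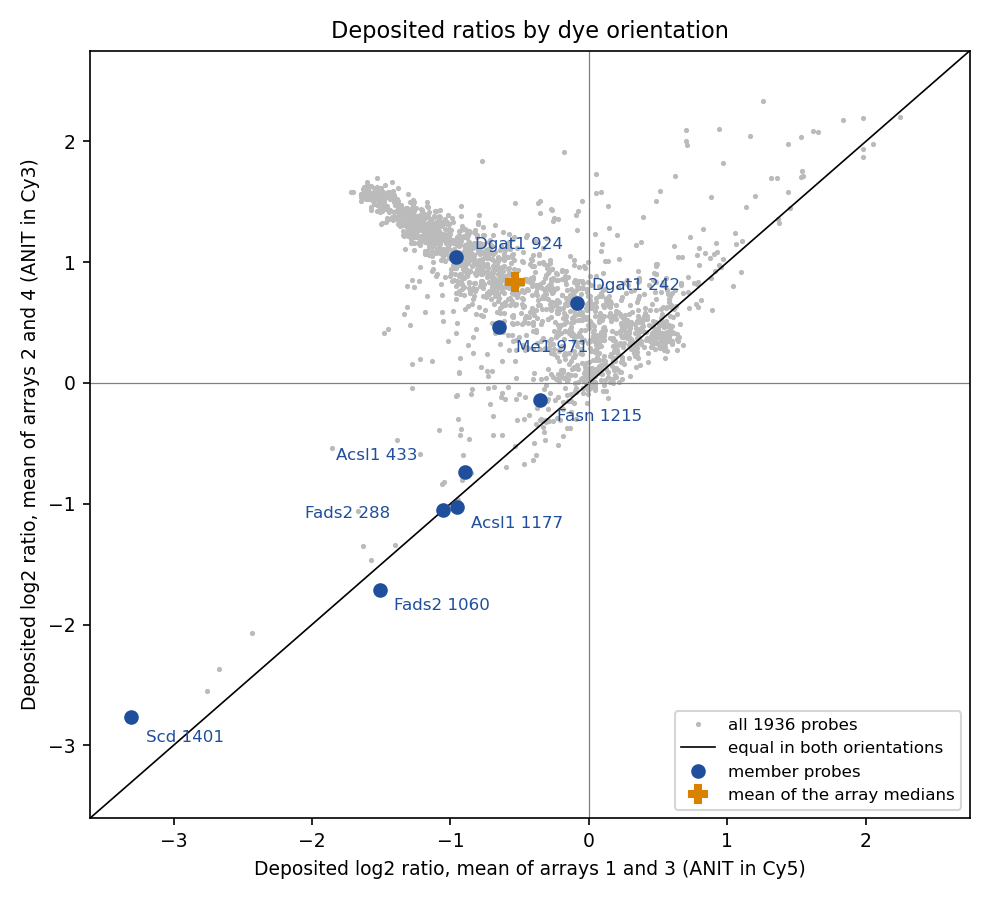
Mean deposited log2 ratio of arrays 1 and 3 (ANIT in Cy5, horizontal axis) against that of arrays 2 and 4 (ANIT in Cy3, vertical axis) for all 1936 probes (grey) and the 9 member probes (blue, with gene and probe number). The black line marks equal ratios in both orientations and the orange cross the mean array medians. Probes of Fads2 and Acsl1 lie on or near the line (dye differences of -0.16 to 0.20), the Scd probe lies at the lower left, and Dgat1 probe 924 lies in the dense upper left arm (-2.0).

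Differences between members on the same array do not depend on centring. Fads2 was above Scd on every array, by 1.83, 0.87, 2.21 and 1.90 on arrays 1 to 4. Acsl1 was above Fads2 on every array by 0.43 ± 0.29, from 0.21 to 0.78, and Fasn was above Acsl1 by 0.66 ± 0.086, from 0.52 to 0.82. Fads2 and Acsl1 were the closer of these neighbours relative to their spread, since probe 288 of Fads2 overlapped both probes of Acsl1. Me1 and Fasn could not be ordered. Me1 was lower than Fasn on the Cy5 arrays, with differences of -0.23 and -0.37, and higher by 0.70 and 0.51 on the Cy3 arrays. Dgat1 was above Me1 on all 4 arrays by 0.26 ± 0.079. The order Scd, Fads2, Acsl1 and then Fasn therefore held on each array for the gene means. It did not hold for every probe, since on array 4 probe 288 of Fads2 lay above both probes of Acsl1. The order of Fasn and Me1 changed with the dye.

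Other genes of fatty acid synthesis and use were taken from lists of known pathway genes. The lists of substrate supply, synthesis and elongation, desaturation, activation and glycerolipid assembly together named 73 genes, of which 11 were on the array under a single symbol. Of these, 4 were counted as lower (Scd, Fads2, Acsl1 and Pklr) and 0 as higher, against 1.15% and 1.25% of all genes. The first 3 are members chosen on these ratios. As deposited, 2 of the 11 were counted as lower, both of them members. The median centred log2 ratio of the 11 was -0.40, against -0.04 over all 958 genes. The 5 that are not members had a median of -0.0039, from -1.08 to 0.59, and Pklr alone was counted.

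Pklr, the liver pyruvate kinase that ends glycolysis and feeds acetyl-CoA production, was 1 of 2 measured genes of substrate supply, with Me1. Its deposited log2 ratios were -1.06, -0.96, -1.04 and -0.67 on arrays 1 to 4, all below 0. Its centred mean of -1.08 ± 0.16 lay next to that of Acsl1, and its deposited mean of -0.93 was under 2-fold. The centred values were -0.53 and -0.51 on the Cy5 arrays and -1.81 and -1.49 on the Cy3 arrays. Its error leaves out this gap of 1.13, and the Cy5 arrays alone gave -0.52, under 2-fold. Fasn was the 1 measured gene of synthesis and elongation of 18 listed, Acsl1 the 1 of 14 for activation, and Dgat1 the 1 of 20 for glycerolipid assembly, so these steps rest on single genes.

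The desaturation list was the best covered, with 6 of 9 genes measured and 2 counted as lower. Scd2, the second stearoyl-CoA desaturase of the rat and a close relative of Scd, had deposited log2 ratios of -0.03, 0.27, 0.11 and 0.24 on arrays 1 to 4. As deposited, it was near 0 on all arrays. Centring gave 0.51 and 0.64 on the Cy5 arrays and -0.57 and -0.59 on the Cy3 arrays, so its sign then depended on the dye. Scd2 stood above Scd by 3.17, 2.81, 3.53 and 3.24 on arrays 1 to 4. Both desaturase probes therefore gave clearly separate values, with a mean difference of 3.19 ± 0.28, although how far either probe also binds the related transcript was not tested.

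The electron carriers of the desaturases differed in direction, with Cyb5a above 0, Cyb5b near 0 and Cyb5r3 below 0. Cyb5a, the microsomal cytochrome b5, had a centred mean log2 ratio of 0.59 ± 0.060 over 6 probes, and 5 of them lay between 0.37 and 0.85. The remaining probe, 140, had 0.12, with deposited values that changed sign with the dye. The deposited gene mean of Cyb5a was 0.74. Its probe 264 had deposited values of 0.96, 1.15, 0.88 and 1.01, and their mean of 1.00 reached 2-fold higher as a probe. Cyb5b, the form of the outer mitochondrial membrane, had 0.03 ± 0.058 from 3 probes between 0.020 and 0.038. Its centred gene values were above 0 on the Cy5 arrays and below 0 on the Cy3 arrays, a gap of 0.99. Cyb5r3, the cytochrome b5 reductase, had -0.54 ± 0.0080 from probes that disagreed. Its probe 1360 had deposited log2 ratios of -0.89, -0.86, -0.95 and -0.74, low on every array like those of Acsl1, and its centred mean of -1.01 met the rule for lower as a probe. Its probe 1881 had -1.16 and -1.09 on the Cy5 arrays and 1.35 and 1.22 on the Cy3 arrays, so its sign followed the dye, with a centred mean of -0.07. As gene means over all their probes, 0 of these 3 carriers were counted, and Cyb5r3 missed the rule through the average with probe 1881.

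**Figure D3:**
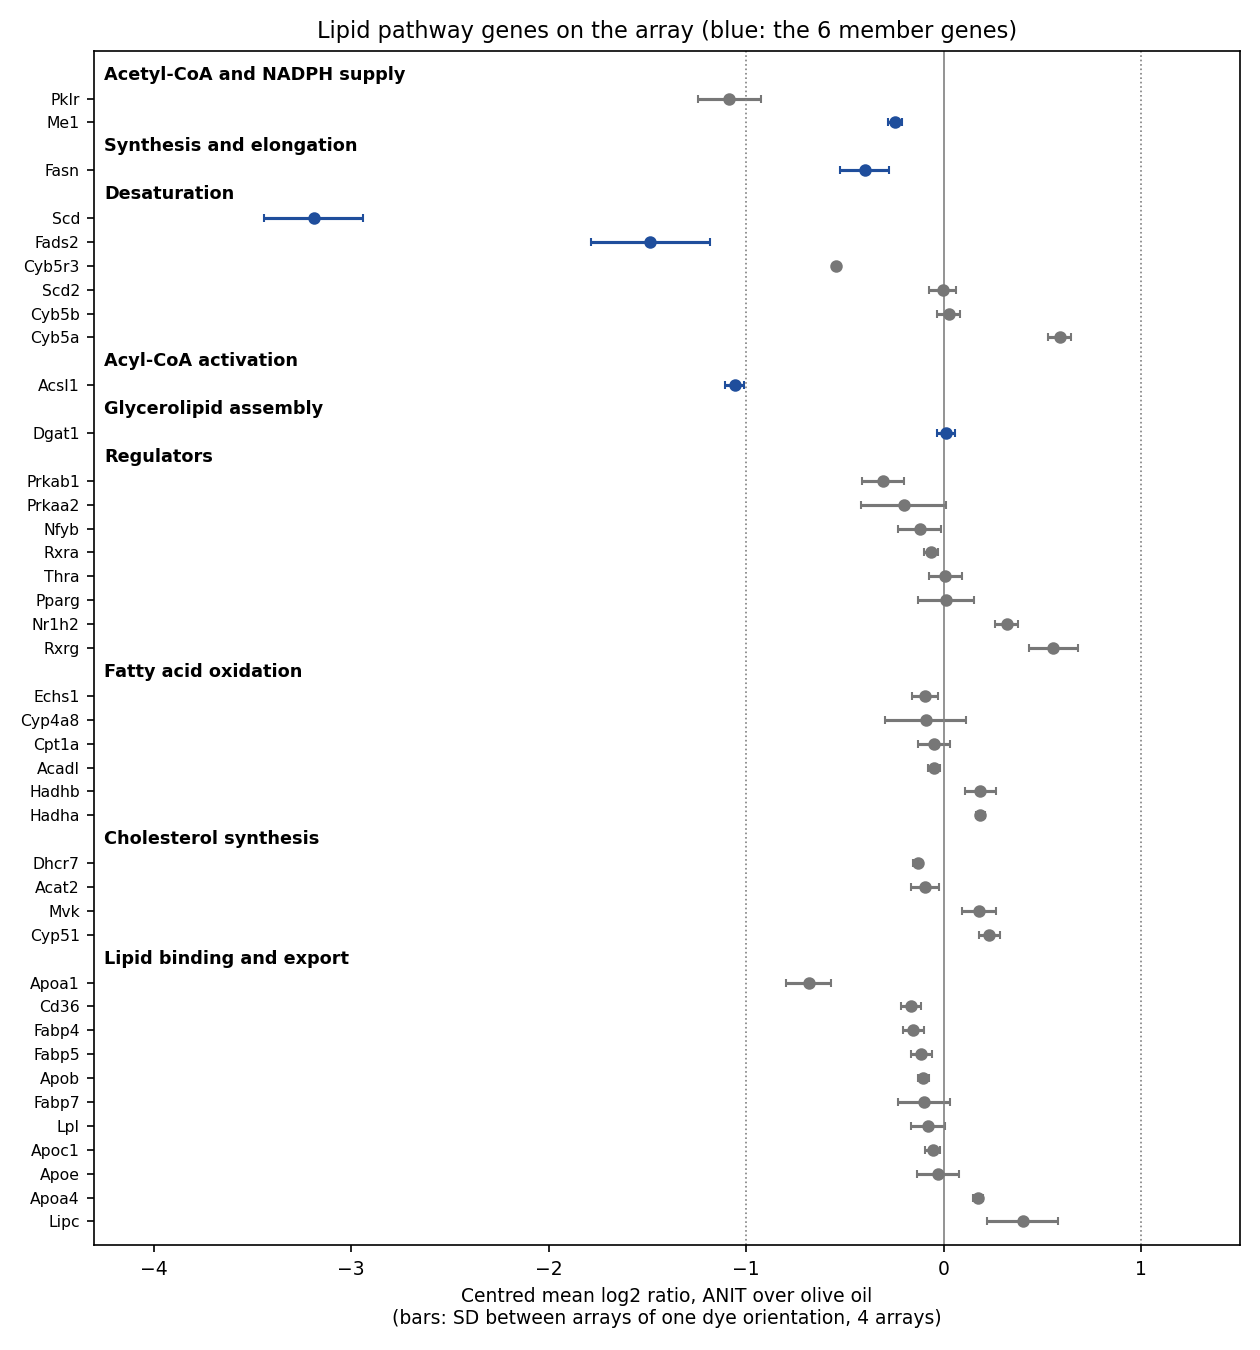
Centred mean log2 ratio (horizontal axis, ANIT over olive oil) of the measured lipid genes by pathway list, with bars for the pooled SD within dye orientations (4 arrays). Blue points are the 6 member genes, grey points other genes, and dotted lines mark 2-fold. Scd (-3.19), Fads2 (-1.48), Pklr (-1.08) and Acsl1 (-1.06) lie beyond the lower line, and no gene of the regulator, oxidation, cholesterol or export lists does.

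Of 31 listed regulators of these genes, 8 were measured and 0 were counted in either direction, with a median centred log2 ratio of -0.03. Rxrg, a retinoid X receptor gene, had 0.56 ± 0.12 from probes at 0.28 and 0.83, and Nr1h2, which encodes the oxysterol receptor LXR beta, had 0.32 ± 0.058. Prkab1 and Prkaa2, subunits of the AMP-activated kinase that inhibits lipid synthesis, had -0.31 ± 0.11 and -0.20 ± 0.21. The centred values of Rxrg, Nr1h2 and Prkab1 were above 0 on the Cy5 arrays and below 0 on the Cy3 arrays. Their errors leave out these gaps of 1.33, 1.26 and 0.99, respectively. The deposited values of Nr1h2 were above 0 on all 4 arrays (0.39 to 0.57), whereas those of Prkaa2 changed sign with the dye. SREBP-1c and ChREBP were not among the named genes and are not analysed here.

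Genes of other lipid pathways did not reach 2-fold as gene means. The median dye difference was -1.15 for the measured oxidation genes and -0.82 for those of cholesterol synthesis and uptake. It was -0.75 for the measured regulators and -0.40 for lipid binding and export, against -0.38 for the members. The part of the dye difference in these ratios was not tested. Of 37 genes of fatty acid oxidation, 6 were measured, with a median of -0.05 and values from -0.09 to 0.19. Hadha and Hadhb, subunits of the mitochondrial trifunctional protein, both had 0.19, from probes at 0.03 and 0.34 for Hadha and at -0.17 and 0.54 for Hadhb. In both genes the deposited sign of the lower probe followed the dye, and the higher probe lay above 0 on all arrays. Echs1, a short-chain enoyl-CoA hydratase, had -0.09. Cpt1a, which admits fatty acids to mitochondria, had -0.05 ± 0.083, from probes at -0.21 and 0.12. Of 22 genes of cholesterol synthesis and uptake, 4 were measured and their median was 0.04, with Cyp51 at 0.23, Mvk at 0.18, Dhcr7 at -0.13 and Acat2 at -0.09. As deposited, the means of these 10 genes lay between 0.02 and 0.38, on both sides of the median of 0.11 over all genes.

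Of 27 genes of lipid binding and export, 11 were measured and had a median of -0.10. Apoa1, which encodes the principal apolipoprotein of HDL, was lowest at -0.68 ± 0.11, with deposited values of -0.65, -0.52, -0.42 and -0.53, below 0 on every array. Its centred values were -0.12 and 0.11 on the Cy5 arrays and -1.37 and -1.36 on the Cy3 arrays. The error leaves out this gap of 1.36. Lipc, the hepatic lipase, was highest at 0.40 ± 0.18, with a centred gap of 1.16 between orientations. Apoa4, another apolipoprotein gene, had 0.18 ± 0.026 from probes that disagreed. Its probe 662 had 0.46, with deposited values of 0.59 to 0.64 on the arrays. Its probe 459 had -0.11, and the sign of its deposited values followed the dye. Cd36, a fatty acid transporter gene, had -0.17 ± 0.052.

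Markers of other cell types were sparsely covered. The values are ratios and hold no expression level, so liver identity could not be checked against hepatocyte markers, of which 5 of 12 were measured. These 5 had a median of -0.20, with Fgg at 0.79 ± 0.16, Apoa1 at -0.68 and Ttr at -0.20. Of 11 cholangiocyte markers 5 were measured (median -0.07, with Clu at 0.34, Spp1 at -0.12 and Ggt1 at -0.10). Of 8 adipocyte markers 2 were measured (Fabp4 at -0.15 and Pparg at 0.01), as were 2 of 10 neutrophil markers (Il1b at -0.10 and S100a9 at 0.04) and 0 of 8 macrophage markers. None was counted, but the median dye difference was -2.66 for the measured cholangiocyte, -2.34 for the adipocyte and -2.34 for the neutrophil markers, against -0.38 for the members. The part of other cell types in the members' ratios was not tested. Of the housekeeping genes spotted on the arrays, Hprt1 had 0.09 ± 0.027 and Actb had 0.04 ± 0.068. The centred values of Actb were 0.47 and 0.35 on the Cy5 arrays and -0.30 and -0.36 on the Cy3 arrays. Its error leaves out this gap of 0.74, against a gap of 0.18 for Hprt1.

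The genes most like each member were found by the distance between their ratios over the 4 arrays, the square root of the summed squared differences, in log2 units. It is the same with or without centring, and the arrays share their pair of pools. For Scd the nearest was Car3, which encodes carbonic anhydrase III, at a distance of 1.00 and with deposited values from -2.72 to -2.43, and the next, Fgfr3, was already at 3.12. For Fads2 the nearest were Fgfr3 (0.47), a growth factor receptor gene, Tsc22d1 (0.58) and Avpr1a (0.71), a vasopressin receptor gene. For Acsl1 they were Pklr (0.30), Gckr (0.42), the regulator of glucokinase, and Rab25 (0.61). The 3 nearest genes thus lay between 1.00 and 3.15 from Scd, between 0.47 and 0.71 from Fads2, and between 0.30 and 0.61 from Acsl1.

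For Fasn the nearest were Ptpmt1 (0.14), a mitochondrial phosphatase gene, Notch3 (0.16) and Dtymk (0.21). For Me1 they were Dnase1 (0.098), Pon1 (0.11), a serum paraoxonase gene, and Anxa5 (0.17), all with the same change of sign between dyes as Me1. For Dgat1 they were Apc (0.096), Atp5if1 (0.13) and Hspb3 (0.14), each with deposited values near -0.5 on the Cy5 arrays and near 0.8 on the Cy3 arrays. Small distances were found for members whose ratios were common on the array.

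The plot of settings gathers the 6 gene means under each choice of processing. Scd stayed the lowest under every choice that keeps the likely direction and reading, between -4.60 and -2.78. The order Scd, Fads2, Acsl1 was also kept in each of these. When the values were instead read as a dye ratio, with the Cy3 arrays turned, the sign of Scd differed between dyes on the arrays (-2.66 and -2.89 against 3.38 and 3.83) and its mean was 0.41, so the count of lower members was 0.

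**Figure D4:**
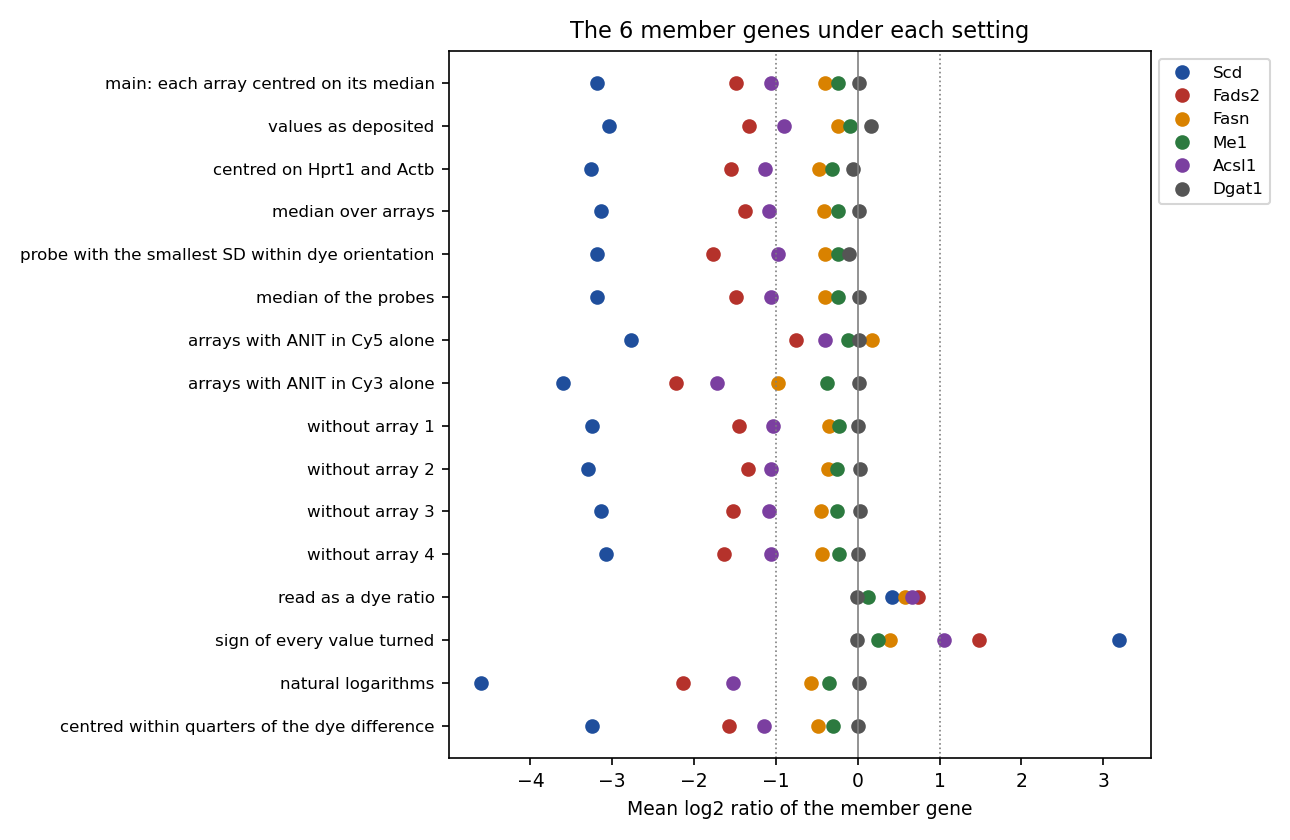
Mean log2 ratio (horizontal axis) of the 6 member genes (colours) under the main setting and each alternative (rows), with dotted lines at 2-fold. Scd lies between -4.60 and -2.78 except where the table is read as a dye ratio (0.41) or every sign is turned (3.19), and Dgat1 stays between -0.11 and 0.17.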

How the data were processed

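The deposited values were log2 ratios of both channels of 2-colour arrays, where base 2 is an assumption, and were used as deposited in all 4 columns, with 0 missing values. Per the labels' protocols, pooled poly(A) RNA was labelled by reverse transcription. How the background was corrected, how values were normalized or centred, their log base and their direction are not stated in the labels. Spot intensities were not analysed.

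Of 1936 probes, the platform annotation gave a single symbol for 1432 and several for 19, and it did not list 485. Symbols were updated through Entrez identifiers to the RefSeq gene table of GRCr8 (1429 matched). Each array was centred on its median, probes of a gene were averaged, and arrays were averaged within, then over, dye orientations. No test was made.

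The members, lists and rules were chosen with earlier results of these data known. Named genes were the members, all counted list genes or else up to 4 of each pathway list by size, the 3 nearest genes per member, up to 3 of each marker list, and Hprt1 and Actb. Further list genes, and single probes that disagreed, were named after their values were seen. Python 3.11.15, numpy 2.4.6, pandas 2.3.3 and matplotlib 3.10.9 were used.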

Additional observations from a re-analysis of the deposited data

Results flagged for a closer look

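Acsl1 had 1 array apart from the others as deposited. Its gene mean was -0.98 on array 1, against -0.88, -0.88 and -0.89 on arrays 2 to 4, and this gap was 0.882 of the whole range, above Dixon's limit for 4 values at the usual 95% level. The range itself was small, with all 4 values within 0.1 of each other. It was the 1 of 30 sets of member values checked that passed the limit, where chance marks about 1 in 20, and the sets overlap because genes share their probes and centring shifts the same values.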

How the results depend on the processing

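No paired analysis was possible because the arrays form 1 group of the same pair of pools. Leaving out each array in turn kept 3 member genes lower, with Scd from -3.30 to -3.08, Fads2 from -1.63 to -1.34 and Acsl1 from -1.08 to -1.03. Probe 288 of Fads2 had -0.91 without array 2 and -0.96 as the median over arrays, so its size beyond 2-fold rests on array 2. Acsl1 was under 2-fold as deposited (-0.91) and with its probe of smallest SD (-0.97).

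As deposited, 7 of all genes were lower. On the arrays with ANIT in Cy5 alone, 1 member gene and 1 member probe were lower, with 7 of all genes lower and 59 higher, and Fads2 and Acsl1 had -0.75 and -0.40. On the Cy3 arrays alone, 36 of all genes were lower and 6 higher. Natural logarithms gave 27 higher genes. At 1.5-fold, 21 genes were lower and 34 higher. At 3-fold, 1 member gene, 2 member probes and 4 of all genes were lower, and 3 genes were higher.

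Read as a dye ratio, 0 genes were lower or higher, members included, and Scd had 0.41, Fads2 0.73 (probes 0.68 and 0.78) and Acsl1 0.66 (probe 1177 0.72). With every sign turned, 0 member genes and 0 member probes were lower and 3 member genes were higher, at 3.19 for Scd, 1.48 for Fads2 (probes 1.20 and 1.76) and 1.06 for Acsl1 (probe 1177 1.15). The cause of these changes lies in how each setting is built, and the right reading of the table could not be checked against spot intensities. With 2 probes a gene, the median and the mean of probes are equal.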

Other observations

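In a setting chosen after the data were seen, each probe was centred on the array's median over the 484 probes in the same of 4 equal sets ranked by dye difference, in place of the median over all probes. Acsl1 then had log2 ratios of -1.19, -1.14, -1.10 and -1.17 on arrays 1 to 4, with an SD over all arrays of 0.037. Fads2 had -1.57, -1.92, -1.43 and -1.38, and Scd had -3.03, -3.12, -3.27 and -3.59.

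Fasn had -0.66, -0.47, -0.48 and -0.36 in this setting, and Me1 had -0.51, -0.09, -0.47 and -0.16, so that 5 of the 6 members lay below 0 on all 4 arrays. Dgat1 had -0.02, 0.04, -0.10 and 0.10. The gene means, from -3.25 for Scd to 0.0055 for Dgat1, kept the order found with the array medians. The dye difference comes from the same arrays as the ratio, so this agreement between dyes follows in part from how the setting is built.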
